A study of Caenorhabditis elegans with 2 samples.

Results

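The nspb genes of the roundworm Caenorhabditis elegans form a family of small genes for nematode-specific peptides. Their log2 ratios in glp-4 larvae against a wild-type reference are described here gene by gene. The members were found by name. They are the genes whose current RefSeq symbol is nspb followed by a number, measured by probes that the platform annotation gives to exactly 1 gene. RefSeq lists 12 such genes. A total of 9 was measured on both arrays, by 10 probes, out of 14777 genes measured on both arrays in all. The other 3, nspb-1, nspb-8 and nspb-9, were not analysed here. The family was selected on its log2 ratios on both of these arrays. Those ratios are thus given as a description, and no test of the family is drawn from them.

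The study hybridised 2 spotted 2-colour microarrays, on which 2 RNA samples labelled with different dyes compete for the same probes. In channel 2 was messenger RNA from glp-4 worms in the L2, the second larval stage, with preparation 1 and preparation 2 each on an array of its own. In channel 1 was messenger RNA of a mixed wild-type reference. The sources used here give neither the allele, the growth temperature nor the stages that make up the reference. They do not state whether the preparations were separate cultures, so the spread between them may be technical. The titles of the 2 arrays also differ in a code and in what reads as a date. Any effect of these cannot be told apart from that of preparation.

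Mutation of glp-4 is known for a germ line that stops multiplying in worms kept warm, and an L2 larva has made no sperm, oocytes or yolk. The channels differ in genotype and in stage at once, so the parts of these in any ratio cannot be told apart. The nsp families are groups of small genes, several of them in tandem copies, that encode short peptides recognised in nematodes. They are named for that distribution and not for a function. No biochemical role is stated here for an nspb peptide.

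A positive log2 ratio is read as likely higher in glp-4 L2, since no dye or direction is stated for the deposited values. This reading rests on genes that a larva should lack. All 30 major sperm protein genes lay below 0 on both arrays, with medians of -3.97 in preparation 1 and -2.86 in preparation 2. The 3 yolk protein genes had medians of -7.16 and -6.80 in the same order. All 12 listed germ cell genes were also below 0 on both arrays, with medians of -2.53 and -2.76. Every sign below would turn if this reading were wrong. Somatic marker lists, of 6 to 8 measured genes each, had preparation 1 medians above 0, between 0.44 for neurons and 1.20 for intestine. In preparation 2 the medians of the same lists were below 0 for body muscle (-0.64), neurons (-0.57), pharynx (-0.26) and hypodermis (-0.09). Only that of intestine was above 0, at 0.57. In whole worms, fewer cells of a type and less RNA per cell cannot be told apart. No part of these lists in the nspb values was tested. Over all genes the arrays correlated with Pearson's r of 0.53 across 14777 genes, which share the reference RNA and are not independent replicates. The all-gene median was 0.10 in preparation 1 and 0.02 in preparation 2, and the number of arrays limits the precision.

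Most measured nspb genes were higher in glp-4 L2 than in the reference. The median log2 ratio of the 9 genes was 1.49 in preparation 1 and 1.38 in preparation 2. On both arrays, 6 of the 9 were at least 2-fold higher, against 4% of all 14777 genes, and 0 of the 9 were at least 2-fold lower, against 7.35%. The 6 were nspb-4, nspb-5, nspb-6, nspb-10, nspb-11 and nspb-12. On the preparation 1 array alone, 6 of 9 were at least 2-fold higher (13.3% of all genes), and on the preparation 2 array alone 8 of 9 were (13.5% of all genes). At least 1.5-fold higher on both arrays were 7 of 9, against 11% of all genes. The gene inside the 2-fold line by least on its lower array was nspb-6, at 1.18, and the gene next outside it was nspb-3, at 0.67. With limma (Benjamini-Hochberg adjustment over all genes), 1 of the 9, nspb-12, passed the threshold of 0.05, against 1.86% of all genes in either direction. At an unadjusted limma p under 0.05 there were 6 of 9, against 18.7% of all genes. The same ratios chose the family, so the limma values are no test of nspb-12 or of the family. Nothing is read from these counts.

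**Figure D1:**
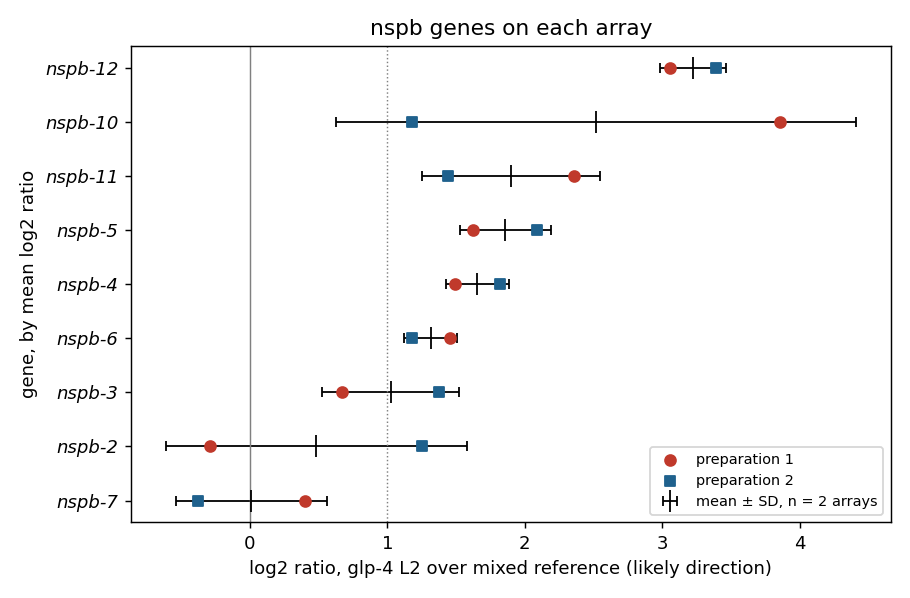
Log2 ratio of each of the 9 nspb genes (horizontal axis, likely glp-4 L2 over mixed reference) in preparation 1 (circles) and preparation 2 (squares), ordered by mean, with vertical ticks and bars for the mean ± SD over 2 arrays. The solid line marks 0 and the dotted line 2-fold. nspb-12 lies near 3 on both arrays, nspb-10 has the widest gap between arrays, and nspb-7 sits on both sides of 0.

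The gene with the highest mean was nspb-12 (F09F7.8), the only measured member on chromosome III. Its log2 ratio was 3.06 in preparation 1 and 3.39 in preparation 2, and the mean was 3.22 ± 0.24 (SD, n = 2 here and for every gene below). This is 9.34-fold higher in glp-4 L2. It ranked 95th from the top of 14777 genes in preparation 1 and 108th in preparation 2, so both arrays placed it in their top 1 percent. No other nspb gene did so on both arrays. It was 1 of 9 to be at least 4-fold higher on both arrays (0.697% of all genes). The platform annotation lists this probe with a gene identifier and no transcript accession.

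The second mean was that of nspb-10 (C01G12.6) on chromosome II, the only member with 2 probes. Its ratio was 3.86 in preparation 1, rank 39 of all genes, and 1.18 in preparation 2, rank 1491. The mean was 2.52 ± 1.89, so the fold of 5.73 is poorly fixed. The probes nearly coincided in preparation 1, at 3.91 and 3.80. In preparation 2 they parted, at -0.12 and 2.49. The gene's place among the 6 genes at least 2-fold higher depends on how these probes are used. The probe at 3.80 and 2.49 alone would keep it there, and the probe at 3.91 and -0.12 alone would not. With the probe nearest 0 taken on each array it drops out and 5 remain.

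nspb-11 (F35C5.10), on chromosome II but not beside the other members there, had 2.35 in preparation 1 and 1.44 in preparation 2. Its mean was 1.90 ± 0.65, or 3.72-fold higher. nspb-6 (H04M03.2), alone at its place on chromosome IV, had 1.45 and 1.18 in preparations 1 and 2. Its mean was 1.31 ± 0.20, which is 2.49-fold and the smallest SD in the family. Both genes lay above 2-fold on each array, and on its lower array each was nearer to that line than its own SD.

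The measured genes of the tandem group on chromosome IV were nspb-2, nspb-3, nspb-4 and nspb-5. nspb-5 (F38A5.9) had 1.62 in preparation 1 and 2.09 in preparation 2, with a mean of 1.86 ± 0.33, or 3.62-fold. nspb-4 (F38A5.10) had 1.49 and 1.82, with a mean of 1.65 ± 0.23, or 3.15-fold. These 2 neighbours had like values, higher in glp-4 L2 on both arrays. nspb-3 (F38A5.5) had 0.67 in preparation 1 and 1.38 in preparation 2, and its mean of 1.02 ± 0.50 was 2.03-fold, with 1 array below that level. nspb-2 (F38A5.12) had -0.29 and 1.26, and its mean of 0.48 ± 1.10 did not stand clear of 0. The sign of nspb-2 thus differed between preparations, and its value is not settled by these arrays.

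nspb-7 (C01G12.2), on chromosome II in the same stretch as nspb-10, had 0.40 in preparation 1 and -0.38 in preparation 2. The mean was 0.01 ± 0.55, the lowest of the family. It was the only member with a ratio below 0 in preparation 2, and nspb-2 was the only one below 0 in preparation 1. The other 7 were above 0 on both arrays (37% of all genes).

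The order of the means, from nspb-12 through nspb-10, nspb-11, nspb-5, nspb-4, nspb-6, nspb-3 and nspb-2 to nspb-7, is loose. Of the 8 pairs of neighbours in this order, 7 had values that overlapped between the arrays and differed by less than their pooled SD. The exception was nspb-4 over nspb-6, with a difference of 0.34 against a pooled SD of 0.21. The range within the family was 4.15 log2 units in preparation 1 and 3.77 in preparation 2. The largest gap between the arrays for a single member was 2.67, for nspb-10. Across the 9 genes the arrays correlated with Pearson's r of 0.47 and Spearman's rho of 0.47, a description of points that share both hybridisations.

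**Figure D2:**
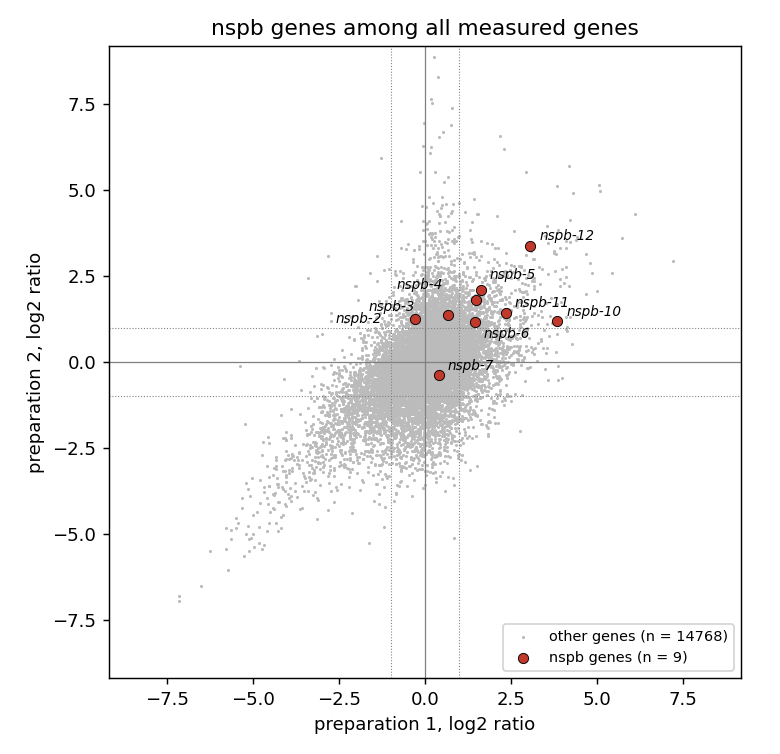
Log2 ratio in preparation 1 (horizontal axis) against preparation 2 (vertical axis) for 9 nspb genes (large labelled points) and the other measured genes (small grey points). Solid lines mark 0 and dotted lines 2-fold in either direction. 6 nspb genes lie in the upper right beyond both dotted lines, and none lies in the lower left.

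The gap between preparations was not the same across the family. All 3 measured nspb genes of chromosome II were higher in preparation 1 than in preparation 2, with differences of 0.77 for nspb-7, 0.92 for nspb-11 and 2.67 for nspb-10. All 4 of the tandem group on chromosome IV were lower in preparation 1 than in preparation 2, with differences of -1.55 for nspb-2, -0.70 for nspb-3, -0.32 for nspb-4 and -0.47 for nspb-5. nspb-12 on chromosome III differed by -0.34 and nspb-6, away from the tandem group on chromosome IV, by 0.28. The median difference over all genes of these chromosomes was -0.03 for II, 0.08 for III and -0.01 for IV. On chromosome II 1267 of all 2612 genes were higher in preparation 1, and on chromosome IV 1106 of all 2204 were lower in it. Over the genes of at most 600 base pairs, which include every measured nspb gene, the median difference was -0.65. Of these 728 short genes, 584 were lower in preparation 1. The probes of nspb-10 differed by 4.0 and 1.3. With 1 array per preparation the split within the family has no test, and the parts of place, span and probe in it were not tested.

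In the order of genes along chromosome IV, the tandem group runs nspb-1, nspb-2, nspb-3, F38A5.22, F38A5.6, nspb-4 and nspb-5. On both arrays the ratios of the 4 measured members were larger with each step in that order, with nspb-2 lowest and nspb-5 highest. Means of nspb-5 and nspb-4 differed by 0.20 (pooled SD 0.28) and those of nspb-3 and nspb-2 by 0.54 (pooled SD 0.85). The values of both pairs overlapped between the arrays, whereas those of nspb-4 and nspb-3 did not. The order was not tested. The gene between them, F38A5.6, was at 0.01 in preparation 1 and 0.23 in preparation 2, below every measured member of the group in preparation 2 and below all but nspb-2 in preparation 1. The measured genes at the group's edges were irld-7, which encodes an insulin and EGF receptor L-domain protein and whose annotated span contains nspb-1 and nspb-2, and F38A5.8. irld-7 was at 0.11 and 0.22 in preparations 1 and 2, and F38A5.8 at 0.50 and 0.64. Neither reached 2-fold on an array.

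On chromosome II the group runs from nspb-7 to nspb-10, with nspb-8, nspb-9 and 3 other genes between them. Of those other genes, C01G12.3 was at -0.50 and 0.44 and cror-1 at 1.46 and 0.62 in preparations 1 and 2. cror-1, which lies next to nspb-10, was above 2-fold in preparation 1 and below it in preparation 2. The nearest measured genes outside the group were madf-5, of the MADF domain family, at 0.62 and -0.02, and C01G12.7 at -0.05 and 0.19. Between madf-5 and nspb-7 lies C01G12.13, which has no value here.

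**Figure D3:**
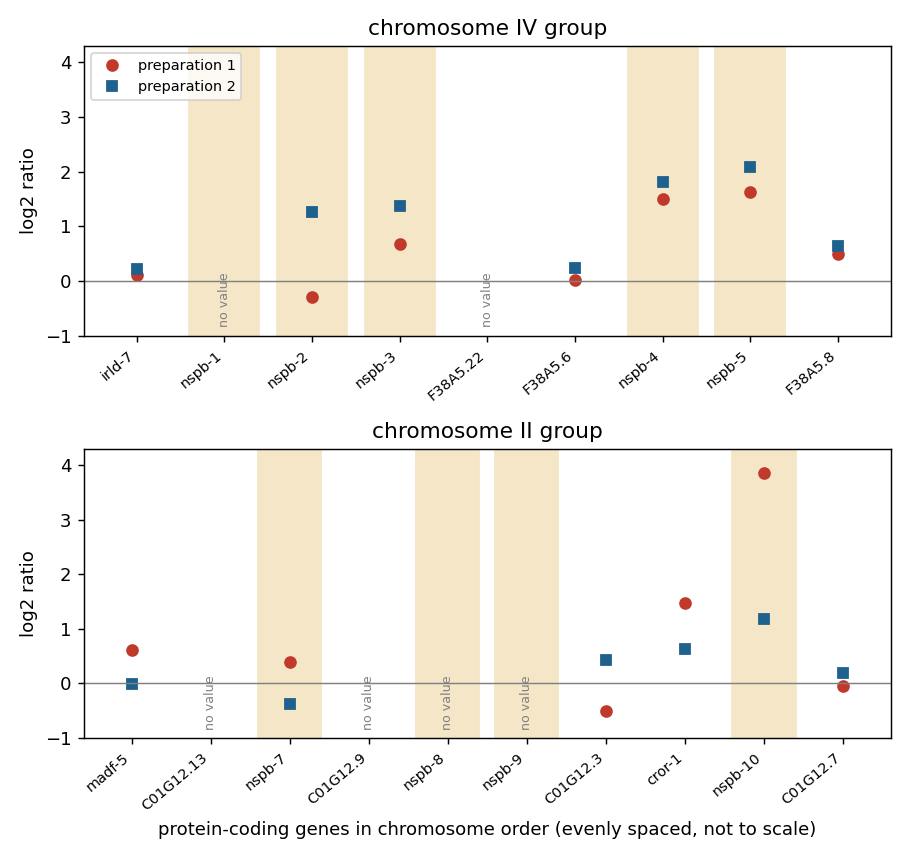
Log2 ratios (vertical axis) of genes in chromosome order (horizontal axis, evenly spaced) through the nspb groups on chromosomes IV and II, in preparation 1 (circles) and preparation 2 (squares). Shaded columns are nspb genes, and genes without points have no value here. nspb-4, nspb-5 and nspb-10 lie above the genes around them, whereas nspb-7 does not.

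The nearest measured genes on either side of the solitary members were set beside them in the same way. Those beside nspb-12 were rpc-2, an RNA polymerase III subunit gene, at 0.52 and -1.79 in preparations 1 and 2, and molo-1, which modulates the levamisole receptor of muscle, at 0.50 and -0.31. Those beside nspb-6 were H04M03.3, at -1.98 and -1.54, and pck-3, a phosphoenolpyruvate carboxykinase gene, at -0.15 and 0.19. Those beside nspb-11 were the C-type lectin gene clec-66, at 0.89 and -1.21, and ddn-2, at -0.14 and 0.04. Each of these 6 genes was lower than its nspb gene on both arrays. Between rpc-2 and nspb-12 lies mlc-3, which has no value here. A gene further out, the C-type lectin gene clec-64 near nspb-11, was higher than nspb-11 in preparation 1, at 2.64, and lower in preparation 2, at 1.32.

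Taking the 3 nearest genes without an nsp name on either side of each measured member gave 35 genes, of which 30 were measured. Their median log2 ratio was 0.15 in preparation 1 and 0.19 in preparation 2. By limma with adjustment over all genes, 0 of the 30 passed in either direction, against 1.86% of all genes, and 3 had an unadjusted p under 0.05, against 18.7% of all genes. At least 2-fold on both arrays, 2 were higher and 1 was lower, against 4% and 7.35% of all genes. The highest mean was that of clec-64, at 1.98 ± 0.93, above the mean of nspb-11, and the lowest that of H04M03.3, at -1.76 ± 0.31. These 2 were named after their values were seen.

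Other nsp families served as relatives by name. The nspa, nspc and nspd families had 5, 4 and 8 genes measured, of 12, 20 and 12 in RefSeq. None of the 8 nspe genes was analysed here. By limma with adjustment over all genes, 0 of these 17 genes passed in either direction, against 1.86% of all genes, and 6 had an unadjusted p under 0.05, against 18.7% of all genes. Their joint median was -1.28 in preparation 1 and -0.04 in preparation 2, against 1.49 and 1.38 for nspb. At least 2-fold higher on both arrays were 0 of 17, against 4% of all genes, and 4 of 17 were at least 2-fold lower, against 7.35%. The difference between nspb and these families was not tested, since nspb was chosen for its ratios.

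In the nspd family the ratios lay low. Its median was -2.18 in preparation 1 and -0.86 in preparation 2, and 6 of 8 genes were below 0 on both arrays, against 30.8% of all genes and 0 of 9 nspb genes. nspd-5 had -2.83 and -2.01 (mean -2.42 ± 0.58, limma adjusted p = 0.0636), and nspd-6 had -2.65 and -1.05 (mean -1.85 ± 1.13, limma adjusted p = 0.161). The nspa median was -1.43 in preparation 1 and -0.04 in preparation 2. nspa-8 had -1.60 and -1.23 (mean -1.41 ± 0.26, limma adjusted p = 0.162), and nspa-1 had -1.90 and -0.04 (mean -0.97 ± 1.31, limma adjusted p = 0.391). The nspc medians were -1.05 and 0.51, so that family had no common sign. nspc-9 had -1.21 and -0.56 (mean -0.89 ± 0.46, limma adjusted p = 0.317), and nspc-13 had 0.37 and 0.66 (mean 0.52 ± 0.21, limma adjusted p = 0.507). Families nspg and nsph were added after their values were seen. The 6 nspg genes had medians of 0.38 and 0.56. Of these, 2 were at least 2-fold higher on both arrays, against 4% of all genes. They were nspg-6 at 1.41 and 1.17 and nspg-10 at 1.57 and 1.19. Of nsph, the 5 measured genes had medians of -1.02 and -0.19, and none was at least 2-fold higher on both arrays, against the same 4%.

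**Figure D4:**
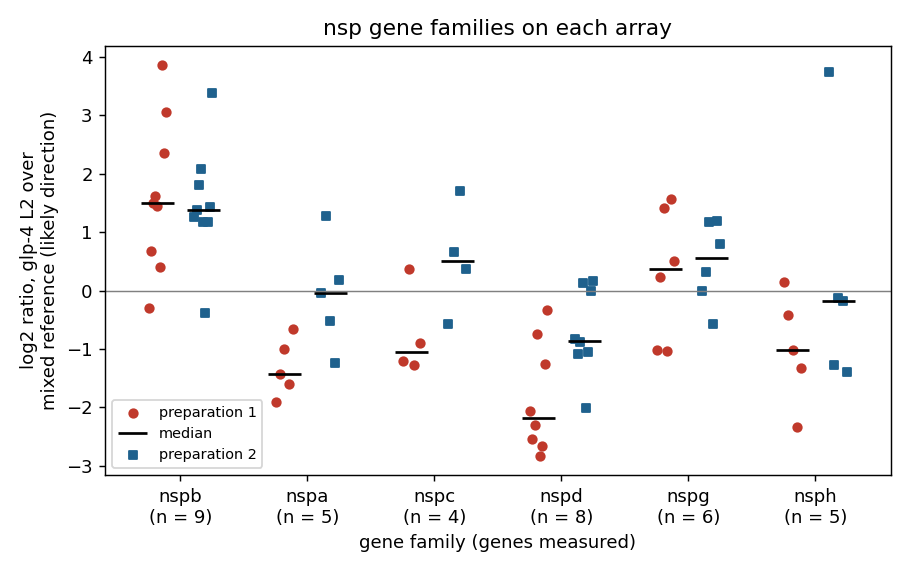
Log2 ratio (vertical axis, likely glp-4 L2 over mixed reference) of every measured gene of 6 nsp families (horizontal axis) in preparation 1 (circles, left in each family) and preparation 2 (squares, right), with black bars for medians. The nspb medians are 1.49 and 1.38. The nspa, nspc and nspd points of preparation 1 lie mostly below 0.

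All 17 nspa, nspc and nspd genes had lower ratios in preparation 1 than in preparation 2, against 5 of 9 for nspb. Over all genes this held for 7416 of 14777. Gene span moved with this gap. The measured nspb genes span 285 to 571 base pairs in RefSeq, with a median of 399, whereas the median over all genes with a span is 2139. The 728 genes of at most 600 base pairs had medians of -0.14 in preparation 1 and 0.34 in preparation 2, and 584 of them were lower in preparation 1. The 13973 longer genes had medians of 0.12 and -0.003. The nspb medians were above those of short genes on both arrays, but nspb was chosen for its ratios, so nothing is read from this. The part of span in the nspb values was not tested.

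Among 189 gene-name families with at least 8 measured genes, nspb had the second highest median of gene means, at 1.65. It ranked 3rd by median in preparation 1 and 3rd in preparation 2. The highest family by gene means was abu, with a median of 1.67 over 13 genes. Its medians were 3.25 in preparation 1 and 0.03 in preparation 2, so it rested on 1 array where nspb did not. The family named irg came next to nspb, with a median of 1.52 over 8 genes. Other families were also high on both arrays. In preparations 1 and 2 the medians were 1.64 and 1.21 for dod, 0.98 and 1.88 for rps, and 0.96 and 1.40 for rpl. The ranks describe these arrays, and families were not compared by a test. Since nspb was chosen for these same ratios, nothing is read from its rank.

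The genes nearest to the median point of the family over the 2 arrays were lpd-6, pqn-94, lips-11, mpst-7 and skr-3. lpd-6 had log2 ratios of 1.47 and 1.36 in preparations 1 and 2, at a Euclidean distance of 0.03 log2 units. pqn-94, named for a glutamine- and asparagine-rich domain, lay at 0.05, and lips-11, of the lipase family, at 0.06. mpst-7 and the Skp1-related gene skr-3 both lay at 0.07. The likeness rests on 2 values per gene.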

How the data were processed

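Each probe has 1 deposited value per array. The authors' values were taken to be log2 ratios of the 2 channels, since 2 raised to the value fell on a grid of 0.001, with a tolerance of 0.002 steps, in 99.1% of preparation 1 values and 98.8% of preparation 2 values, against at most 1.14% for other bases or the inverse. How the authors corrected background or scaled the arrays, and the dyes and scanner, is not stated in the sources used here. Intensities were not used, so signal over background is unknown.

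Of 21632 probes, 16450 have exactly 1 gene in GEO's platform annotation, 247 have several and 4935 have none. Entrez IDs gave current names from RefSeq (assembly WBcel235) for 16360 of the 1-gene probes, and 90 kept the annotated name. Chromosome, gene order and span are from the same RefSeq table. Probes were averaged per gene and array, with no further scaling.

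All 14777 genes were fitted with limma 3.58.1 in R 4.3.3 (an intercept, eBayes, Benjamini-Hochberg adjustment, threshold 0.05), with 1 residual degree of freedom and a prior of 4.52. The reference is 1 control RNA whose own spread is left out, and dye bias stays in the ratios. The fit was also run on simulated data with independent noise for each gene and array. That simulation holds no shared reference, dye bias or array-wide shift, so it cannot show how these affect the limma calls. Paralogs of similar sequence can bind each other's probes, which was not tested, so the nspb genes may not be separate measurements.

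Members, lists and tests were chosen with earlier results of these data known. Named were every measured nspb gene, members of other nsp families past the threshold (or the largest 2 means), the nearest measured neighbours of each nspb group, and the 5 genes nearest to the family's median point. The marker lists were germ cells, major sperm proteins, yolk proteins, intestine, pharynx, hypodermis, body muscle and neurons. A planned comparison of peptide and promoter sequences was not made, as no sequence was used here. Alternatives were array scaling, a limit on extreme ratios, the rule for several probes, the fold threshold and leaving out an array.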

Additional observations from a re-analysis of the deposited data

How the results depend on the processing

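The median of the nspb genes' mean log2 ratios was 1.65. With 1 array left out it ranged from 1.38 to 1.49. The count of 6 nspb genes at least 2-fold higher on both arrays fell to 1 at a fold of 4, where 0.697% of all genes passed, and was 7 at 1.5-fold, where 11% did. It was 5 with the probe nearest 0 per gene and array. The limma count over all genes was 275 as reported, 660 with each array centred on its median, 605 after quantile normalization and 144 with log2 ratios limited to 5, and the cause was not tested. The preparation 1 median of all genes was -0.003 with centring and 0.10 as deposited. In the nspd family 1 gene, nspd-5, passed limma with centring and 1 with quantile normalization, against 0 as reported. Across the scalings, the limit and the probe rule, nspb-10 had means between 1.84 and 2.64, and nspb-7 between -0.05 and 0.03. On single arrays nspb-10 lay at 3.86 and 1.18, and nspb-2 at -0.29 and 1.26. A refit of limma on 1 array was not run, since 1 array leaves no residual degree of freedom. The planned promoter comparison was not run. No paired analysis was possible because the series holds 1 group, and each array already carries its own reference.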
